A study of Mus musculus with 15 samples.

Results

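Inflammasome and pyroptosis genes were followed as a set of 9 genes, Nlrp3, Aim2, Pycard, Casp1, Casp4, Casp8, Gsdmd, Mlkl and Il18, named one by one rather than chosen by a measured value, out of the 32372 genes of the count matrix. The set was named with earlier results of these data known. All 9 had a row, all 9 had UMIs in every mouse, and all 9 passed the filter on low counts. The cells were microglia from cortex and hippocampus of male C57BL/6J mice aged 3.5 months that carry a human transferrin receptor knock-in (hTfR KI), a change that every group shared. Each animal received a single dose of 10 mg/kg of either ATV:4D9, a TREM2-activating antibody carried on a transport vehicle that binds the transferrin receptor, or the control antibody ATV:RSV. The ATV:RSV mice were taken at day 1 and the ATV:4D9 mice at day 1, 7, 14 or 28, which made 5 groups of 3 animals, and each of 3 processing batches took 1 animal per group. No ATV:RSV animal was taken after day 1, so at the later days time after dosing and treatment cannot be told apart. P-values set the differences between groups against the spread between these mice.

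Inflammasomes are protein platforms that form when a sensor such as NLRP3 or AIM2 recruits the adaptor ASC, encoded by Pycard, which in turn gathers caspase-1. Active caspase-1 cuts the precursors of the cytokines IL-1β and IL-18 and also gasdermin D, whose freed end opens pores in the cell membrane and causes pyroptosis, a lytic form of cell death; the caspase encoded by Casp4 cuts gasdermin D directly after binding bacterial lipopolysaccharide. Caspase-8 drives apoptosis and restrains necroptosis, in which MLKL is the protein that breaks the membrane. Much of this pathway is set off by protein assembly and cleavage, which RNA counts do not measure.

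The values below are CPM, UMIs summed over all cells of a mouse and brought to a common library size with TMM scaling, unless another scale is named. A UMI marks 1 captured RNA molecule. Libraries held 32341960 to 70307384 UMIs from 5667 to 7596 cells, and the ATV:4D9 day 1 cells were deeper, with a median of 8202 to 8996 UMIs per cell in a mouse against 4694 to 6117 in the other groups. The 10 microglia markers checked were present in every group and summed to 28522 to 31878 CPM, and the summed markers of neutrophils reached 142 CPM in 1 of the ATV:4D9 day 7 mice against at most 9.09 CPM in the other libraries. Between libraries, 2579 cells (2.53%) shared their cell barcode with a cell of another mouse.

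The promoters of 3 members are shown because these genes carry the findings: Pycard and Mlkl differed most at day 1, and Casp4 differed most between clusters. The windows run from 250 bases before to 50 bases after the RefSeq start (GRCm38.p6), read 5′ to 3′ on the gene's strand at chr7:127993818-127994117, minus strand, chr8:111338156-111338455, minus strand, and chr9:5308599-5308898, plus strand for the first of the Casp4 starts; capitals mark matches to the NF-kB motif on either strand.
Pycard: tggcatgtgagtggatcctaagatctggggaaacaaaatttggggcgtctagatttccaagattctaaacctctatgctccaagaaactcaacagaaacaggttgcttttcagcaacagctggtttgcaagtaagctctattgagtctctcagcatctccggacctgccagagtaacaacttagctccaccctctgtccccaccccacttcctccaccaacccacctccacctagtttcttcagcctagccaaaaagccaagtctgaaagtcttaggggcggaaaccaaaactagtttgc
Mlkl: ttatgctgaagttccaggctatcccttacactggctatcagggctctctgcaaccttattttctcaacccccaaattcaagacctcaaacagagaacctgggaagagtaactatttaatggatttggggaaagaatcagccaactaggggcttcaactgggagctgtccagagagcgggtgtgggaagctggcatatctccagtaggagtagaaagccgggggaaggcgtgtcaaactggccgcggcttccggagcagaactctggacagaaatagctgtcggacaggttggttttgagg
Casp4: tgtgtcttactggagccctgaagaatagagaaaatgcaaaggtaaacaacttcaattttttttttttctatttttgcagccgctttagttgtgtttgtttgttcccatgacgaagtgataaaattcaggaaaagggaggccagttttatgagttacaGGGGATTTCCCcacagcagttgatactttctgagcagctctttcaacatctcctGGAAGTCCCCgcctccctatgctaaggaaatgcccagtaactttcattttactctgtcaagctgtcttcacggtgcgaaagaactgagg
RefSeq windows were found for 8 of the 9 members, Gsdmd having no entry. The interferon-response core, GAAA and GAAA separated by any 2 bases, was in none of the 8, and it was in 3.99% of the 27025 genes with a window. The gamma-activated site (GAS) motif TTCNNNGAA was likewise in none of the 8 and in 9.55% of all genes. Both strands were searched, and a missing match says only that these letters are not in the window. The NF-kB motif was in the windows of Casp4 and Nlrp3, and in 9.55% of all genes. In Casp4 an overlapping pair of matches, GGGGATTTCC and GGGATTTCCC, and the separate match GGAAGTCCCC lay in the window, and in Nlrp3 the match GGGAACCCCC was in the window of the second start only.

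At day 1 after ATV:4D9, Pycard rose 2.00-fold, Mlkl rose from a trace level, Gsdmd fell as a share of UMIs and the sensors Nlrp3 and Aim2 and the caspases Casp1 and Casp4 did not pass the test. Of the 9 members 5 were called at an adjusted p under 0.05, 3 of them higher and 2 lower, beside 69.2% of all 14260 genes tested, 34.7% higher and 34.6% lower, a background that the members' count did not exceed. The median log2 fold change of the members was 0.14, beside -0.05 over all genes tested. None of the 9 was called against the control at day 7, 14 or 28.

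**Figure D1:**
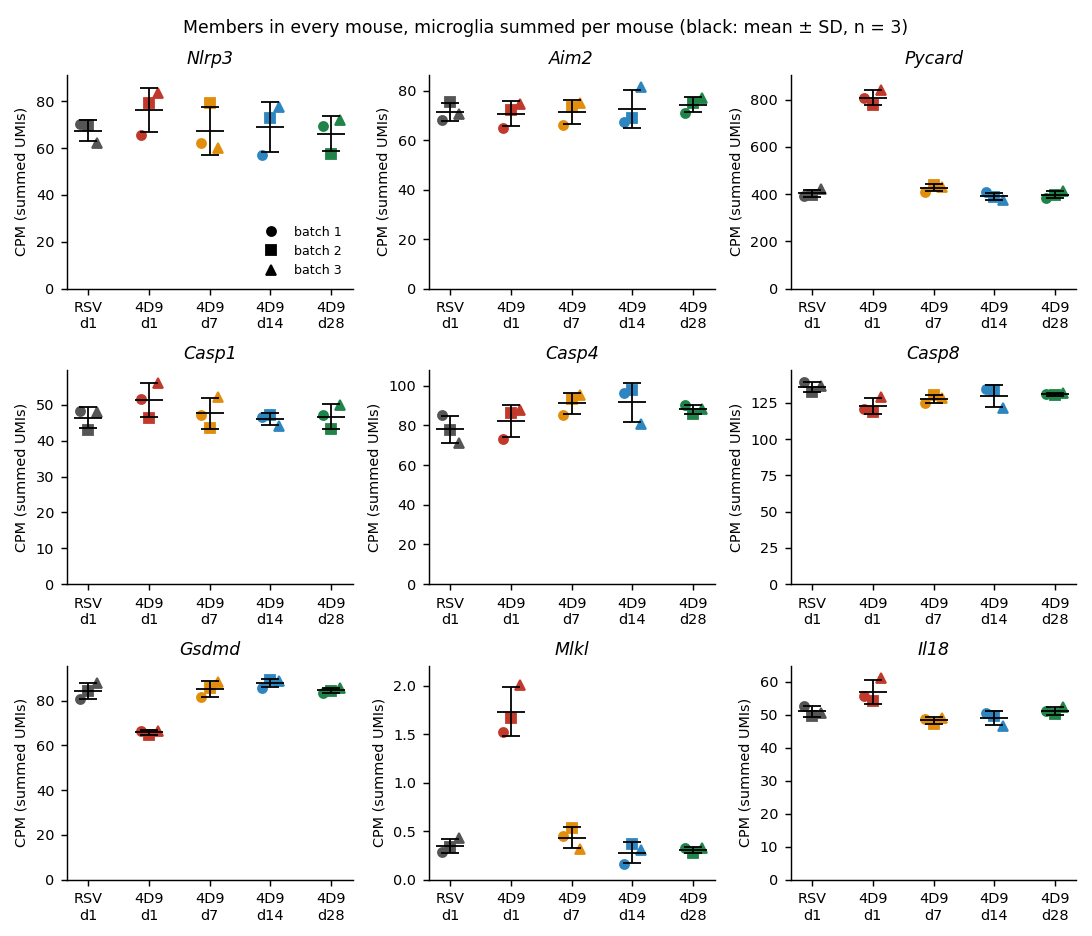
CPM of each member (y axis, from 0) in every mouse of the 5 groups (x axis; RSV, ATV:RSV; 4D9, ATV:4D9; d, day), with symbols for the 3 batches and black bars for the mean ± SD of 3 mice. Pycard and Mlkl at day 1 stand above every other mouse, Gsdmd at day 1 stands below every other mouse, Il18 at day 1 stands a little above the others on this scale, and the groups of Nlrp3, Aim2 and Casp1 overlap.

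Among the sensors, Nlrp3 (chr11:59541568-59566956, mm10, plus strand), which senses membrane damage and ion loss, had 70.3, 69.8 and 62.2 CPM in the ATV:RSV mice and 65.8, 79.4 and 83.7 CPM in the ATV:4D9 day 1 mice. The groups overlapped, and the difference was 0.17 ± 0.13 on the log2 scale (SE; 95% interval -0.10 to 0.44, adjusted p = 0.244). Its 15 mice ranged from 57.0 to 83.7 CPM, with 57.0, 73.0 and 77.4 CPM within the day 14 group. Within batches the day 1 difference had both signs, from -0.10 to 0.43. The day 7 mice had 62.4, 79.2 and 60.3 CPM and the day 28 mice 69.3, 57.5 and 71.8 CPM, again overlapping the control.

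Aim2 (chr1:173350879-173466040, plus strand, with Cadm3 overlapping on the other strand), a sensor of DNA in the cytosol, had 68.3, 75.6 and 70.9 CPM in the ATV:RSV mice and 65.0, 72.5 and 74.7 CPM at day 1, where the groups overlapped. The log2 difference was -0.02 ± 0.08 (95% interval -0.18 to 0.14, adjusted p = 0.826), with a sign that turned under several settings, and the 15 mice ranged from 65.0 to 81.7 CPM. The later mice had 66.1, 73.6 and 75.0 CPM at day 7, 67.4, 69.2 and 81.7 CPM at day 14, and 71.2, 75.1 and 77.0 CPM at day 28.

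The adaptor Pycard (chr7:127989708-127993867, minus strand) had 393, 397 and 421 CPM in the ATV:RSV mice, on 16452 to 19248 UMIs per mouse. In the ATV:4D9 day 1 mice it had 807, 779 and 840 CPM. The groups did not overlap, and the day 1 mice were above all 12 others. The fold was 2.00 (log2 1.00 ± 0.05 SE, limma-voom adjusted p = 4.52e-11), and batch by batch the log2 values were 1.04, 0.97 and 1.00. At day 7 the mice had 411, 440 and 429 CPM, overlapping the control, and they had 408, 387 and 376 CPM at day 14 and 384, 397 and 415 CPM at day 28. From day 1 to day 7 Pycard fell by 0.92 ± 0.05 on the log2 scale (adjusted p = 1.36e-10).

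Casp1 (chr9:5298517-5307265, plus strand), the effector protease of the canonical inflammasome, had 48.3, 43.1 and 47.9 CPM in the control and 51.5, 46.4 and 56.1 CPM at day 1. The groups overlapped although the day 1 mouse was higher in each of the 3 batches, by 0.09, 0.11 and 0.23 on the log2 scale. The fitted difference was 0.14 ± 0.08 (95% interval -0.03 to 0.31, adjusted p = 0.125). With the batch as a replicate block the same difference of 0.14 passed, at an adjusted p of 0.0387. It also passed without the ATV:4D9 day 1 mouse of batch 2, at 0.22 (adjusted p = 0.0288), and in cells with no UMI of the cycling genes Mki67 or Top2a, at 0.21 (adjusted p = 0.0294). The later mice overlapped the control, with 47.3, 43.5 and 52.2 CPM at day 7, 46.6, 47.2 and 44.2 CPM at day 14, and 47.2, 43.1 and 49.8 CPM at day 28.

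Casp4 (chr9:5308828-5336783, plus strand, 1563 bases downstream of Casp1) was above the control mean at each later day, with no call. It had 85.0, 77.7 and 71.2 CPM in the control and 72.9, 86.5 and 87.6 CPM at day 1, where the log2 difference was 0.07 ± 0.09 (adjusted p = 0.451). At day 7 it had 85.1, 93.3 and 95.1 CPM, at day 14 96.2, 98.0 and 80.5 CPM, and at day 28 90.3, 85.9 and 88.3 CPM. Each of the day 7 and day 28 mice was at or above the highest control mouse, and 1 day 14 mouse was within the control range. The log2 differences from the control were 0.23, 0.23 and 0.18 (SE 0.09 each), with unadjusted p of 0.0197, 0.0186 and 0.0551 and adjusted p of 0.187, 0.689 and 1.000 in limma-voom. All 3 use the same ATV:RSV mice.

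Casp8 (chr1:58795374-58847503, plus strand) had 139, 133 and 137 CPM in the control and 121, 118 and 129 CPM at day 1. The day 1 mice were below all 3 control mice, with batch differences of -0.20, -0.16 and -0.08 on the log2 scale. The log2 difference was -0.15 ± 0.05 (adjusted p = 0.0119). Per cell the direction turned, as described below, and without the ATV:4D9 day 1 mouse of batch 2 the difference of -0.12 was no longer called (adjusted p = 0.0626). It had 125, 131 and 128 CPM at day 7, 135, 134 and 121 CPM at day 14, and 131, 130 and 132 CPM at day 28, where the day 7 and day 28 mice also lay below the control mice without being called (log2 -0.09 and -0.05, adjusted p = 0.376 and 1.000).

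Gsdmd (chr15:75862327-75867408, plus strand), the pore former, had 80.8, 84.2 and 87.7 CPM in the control and 66.3, 64.7 and 66.6 CPM at day 1. The 3 day 1 mice lay below all 12 others, which ranged from 80.8 to 89.4 CPM. These had 81.6, 85.8 and 88.4 CPM at day 7, 85.7, 89.4 and 88.6 CPM at day 14, and 83.6, 84.5 and 85.9 CPM at day 28. The log2 difference was -0.35 ± 0.04 (adjusted p = 2.70e-06) with batch differences of -0.29, -0.38 and -0.40, and from day 1 to day 7 it rose by 0.37 ± 0.04 (adjusted p = 1.74e-06), which turned to -0.091 per cell (adjusted p = 0.366). This was a lower share of the UMIs of the cell and not fewer UMIs per cell, which are given below.

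Mlkl (chr8:111311797-111338177, minus strand), the executor of necroptosis, was scarce. The ATV:RSV mice had 14, 14 and 18 UMIs in all their cells, or 0.286, 0.338 and 0.429 CPM, and the day 1 mice had 97, 102 and 94 UMIs, or 1.52, 1.67 and 2.01 CPM. No day 1 mouse came near another group, the highest of which was 0.528 CPM at day 7. The later mice had 0.453, 0.528 and 0.317 CPM at day 7, 0.162, 0.370 and 0.308 CPM at day 14, and 0.331, 0.273 and 0.326 CPM at day 28, on 8 to 17 UMIs per mouse. The fold was 4.81 (log2 2.27 ± 0.26, adjusted p = 1.02e-06), and from day 1 to day 7 Mlkl fell by 2.01 ± 0.25 (adjusted p = 3.19e-06).

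Il18 (chr9:50554827-50581840, plus strand, with Bco2 and Tex12 overlapping on the other strand), the cytokine precursor, had 52.7, 49.6 and 50.5 CPM in the control and 55.6, 54.0 and 61.0 CPM at day 1. The day 1 mice were above all others, by a small margin. The log2 difference was 0.15 ± 0.05 (adjusted p = 0.0144), and it turned to -0.09 (adjusted p = 0.0941) when libraries were scaled by their total UMIs alone. It was not called without the ATV:RSV mouse of batch 2 (0.14, adjusted p = 0.0571) or without the ATV:4D9 day 1 mouse of batch 3 (0.11, adjusted p = 0.0624). From day 1 to day 7 Il18 fell by 0.23 ± 0.05 (adjusted p = 0.000984), a call lost with total UMIs alone (-0.087, adjusted p = 0.1003). It had 48.8, 47.0 and 48.9 CPM at day 7, each below the control mice, 50.6, 49.6 and 46.6 CPM at day 14, and 51.0, 50.02 and 52.3 CPM at day 28. The day 7 difference from the control was -0.08 (adjusted p = 0.510).

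**Figure D2:**
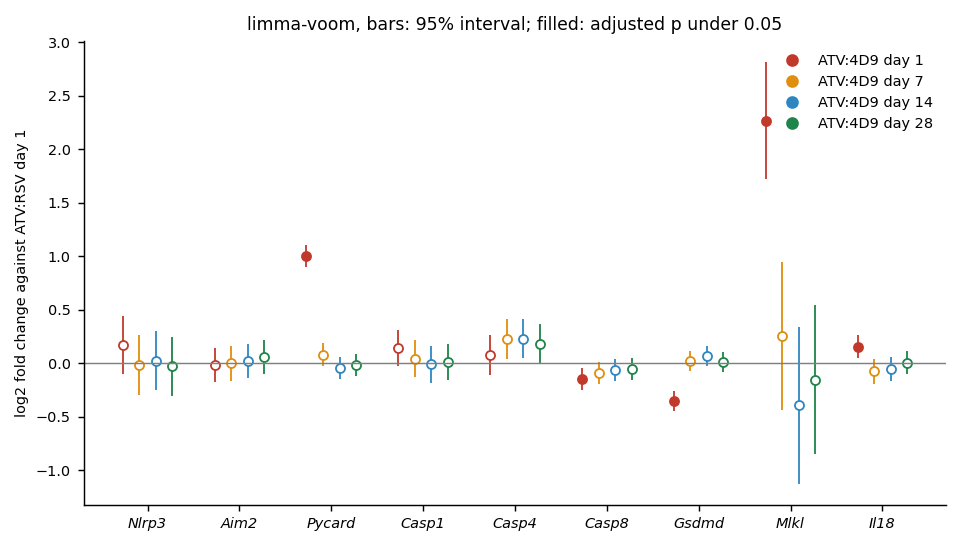
Log2 fold change against ATV:RSV day 1 (y axis) of each member (x axis) at the 4 days of ATV:4D9, from limma-voom, with 95% intervals as bars and filled points where the adjusted p was under 0.05. Filled points occur at day 1 alone, for Pycard, Casp8, Gsdmd, Mlkl and Il18.

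Against the shared control, 0 of 9 members were called at day 7, where 3.98% of all genes were (2.99% higher and 0.996% lower), and 0 of 9 at day 14 and at day 28, where 0.4% (0.386% higher and 0.014% lower) and 0% were. At an unadjusted p under 0.05 the member counts were 1, 1 and 0, and edgeR and DESeq2 also called 0 at each of these days. Over all genes at day 28, 0 were called by limma-voom and by edgeR and 14 by DESeq2. The members' log2 differences lay between -0.09 and 0.25 at day 7, between -0.40 and 0.23 at day 14 and between -0.15 and 0.18 at day 28, with Mlkl at one end each time. Between day 7 and day 1, 4 of 9 were called, 1 higher and 3 lower, beside 66.9% of all genes, 33% higher and 33.9% lower. The F test over the 5 groups called the same 4, Pycard, Gsdmd, Mlkl and Il18, beside 66.5% of all genes.

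The day 1 cells had more UMIs per cell, for which more RNA in the cell and deeper sampling cannot be told apart, and the answer depended on whether a member was counted per UMI or per cell. Per 1000 cells, Gsdmd had 563, 514 and 567 UMIs in the control and 593, 539 and 519 UMIs at day 1, which overlap, whereas Pycard had 2422 to 2742 against 6494 to 7221 UMIs. Scaled by the number of cells, 8 of the 9 members were called at day 1, all of them higher, beside 8945 calls in either direction among all 14260 genes. The calls over all genes were not split by direction on this scale. Gsdmd was not called (log2 0.01, adjusted p = 0.951). On that scale Casp8 turned to 0.21 higher (adjusted p = 0.0424), Nlrp3 was 0.53, Casp1 0.50, Casp4 0.44 and Aim2 0.34 higher, and the median of all genes was itself 0.32 higher. Scaled by total UMIs alone, the median of all genes was -0.29 on the log2 scale, Aim2 was called lower (-0.26) and Nlrp3, Casp1, Casp4 and Il18 turned negative. Pycard and Mlkl were called higher under all 3 scalings. In a bulk sum, fewer cells with a transcript and less of it per cell cannot be told apart, so cells were also counted.

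After every cell was thinned to 3385 UMIs, Pycard was detected in 75.1% ± 1.03 (SD, n = 3 mice) of the control cells and 88.6% ± 0.49 of the day 1 cells. Gsdmd was detected in 26.3% ± 0.96 and 18.7% ± 0.42, Casp8 in 38.4% ± 0.50 and 31.5% ± 0.45, and Nlrp3 in 19.2% ± 0.74 and 18.7% ± 2.05. The Pycard, Gsdmd and Casp8 groups did not overlap and the Nlrp3 groups did. Such shares were not computed over all genes, so how many genes show gaps like these was not tested. Thinned cells have 1 fixed total, as in scaling by total UMIs alone, where the median of all genes was -0.29 at day 1. On that scale 10649 of all 14260 genes were called at day 1, 1199 at day 7, 19 at day 14 and 0 at day 28. Aim2 at day 1 lay wholly below the control, at 18.3% to 19.98% against 21.3% to 22.8%, with no such gap in its CPM. Casp4 lay wholly above the control's 19.5% to 21.4% at days 7, 14 and 28, with a lowest mouse of 22.1%, 22.8% and 22.1%. Casp8 and Il18 lay wholly below the control at the same 3 days, Casp8 at 33.6% to 37.2% against 38.1% to 39.0% and Il18 at 14.1% to 16.7% against 16.9% to 17.97%. Pycard lay wholly below the control at day 14, at 72.1% to 73.9% against 74.4% to 76.2%. Without thinning, the shares in control and day 1 cells were 85.6% and 96.5% for Pycard, 40.0% and 40.2% for Gsdmd, 54.6% and 59.4% for Casp8, and 30.7% and 37.8% for Nlrp3. As background, the neuronal transcript Snap25 was detected in 0.815% to 1.87% of thinned cells in a mouse. Other cell types' markers were detected more often, the oligodendrocyte gene Cnp in 10.7% to 13.5% and the astrocyte gene Slc1a3 in 29.5% to 54.1%. These were the most often detected genes of their lists. The median gene of a list was at 0.310% for neurons, 0.583% for astrocytes and 3.22% for oligodendrocytes. Slc1a3 made up most of its list, at 119 to 246 CPM in a mouse where the 6 astrocyte markers summed to 128 to 256 CPM. Members other than Pycard all lay below the highest share of Slc1a3, and all members but Mlkl lay above the median gene of each list. The source of the UMIs of these other cell types' markers was not tested, so this measure sets no single background level.

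With mice exchanged between the 5 groups inside each batch, an exact permutation test of the spread between group means gave adjusted p values over the 9 members of 0.00125 for Il18, 0.00969 for Casp8, 0.0169 for Gsdmd and 0.0259 for Pycard and Mlkl. The other members had adjusted p values between 0.0897 and 0.988. No such test was run over all genes. With total UMIs alone, the F test over the 5 groups called 10373 of all 14260 genes, so passing is no trait of the members. These p values do not rank the members by size of difference. Pycard differed more at day 1, at 75.1% and 88.6%, than Il18, which had the lowest p. Pairs of groups of 3 mice cannot go below an exact p of 0.1. Il18 was detected in 17.4% ± 0.54 of control cells and 15.3% ± 0.84 of day 1 cells, with no overlap. This direction was opposite to that of its TMM-scaled CPM and the same as with total UMIs alone (log2 -0.086), so no order was read from it. Mlkl was detected in 0.0855% ± 0.032 of control cells and 0.490% ± 0.099 of day 1 cells, which is below the share of Snap25 in both groups; Snap25 itself was lower at day 1, at 0.815% to 1.23% against 1.51% to 1.81%.

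**Figure D3:**
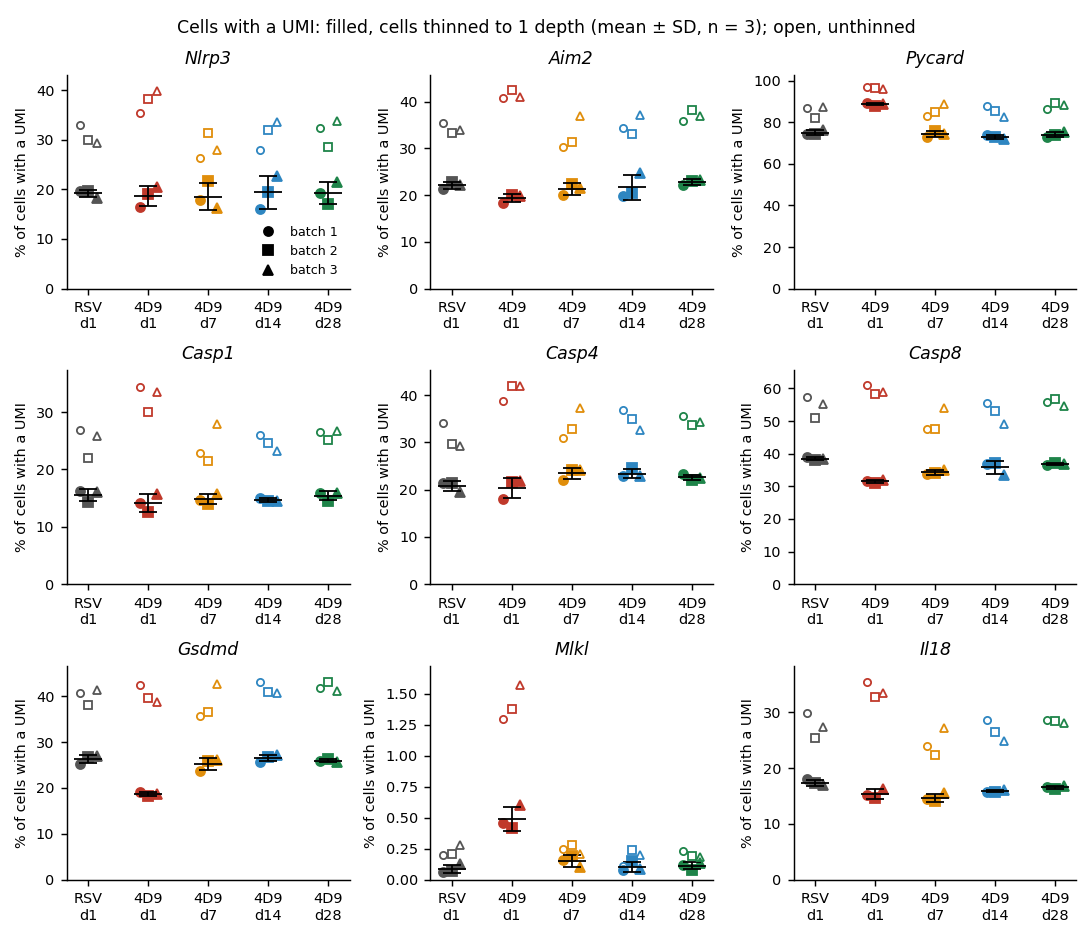
Percent of cells with at least 1 UMI of each member (y axis, from 0) in every mouse of the 5 groups (x axis), filled after thinning each cell to 3385 UMIs (bars: mean ± SD, n = 3) and open without thinning. Gsdmd and Casp8 at day 1 lie below the control when thinned, and Gsdmd overlaps it when unthinned.

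In the thinned cells, 95.9% ± 0.074 of control cells and 97.8% ± 0.26 of day 1 cells had a UMI of at least 1 member, and 42.0% ± 0.043 and 38.2% ± 1.97 had UMIs of at least 3. Pycard and Casp1 were seen together in 11.7% ± 1.07 of control cells and 12.5% ± 1.31 of day 1 cells, where the product of the separate shares was 11.7% and 12.5%. Casp1 and Gsdmd were seen together in 4.02% ± 0.26 and 2.77% ± 0.35, with products of 4.08% and 2.65%. Each of these joint shares lay within 1 SD of its product.

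The deposited annotation divides the cells into clusters 0, 1 and 2. Cluster 2 held 90.0% of the ATV:4D9 day 1 cells and 1.22% to 2.65% of the cells of the other groups, so day 1 cells in clusters 0 and 1 were few, 180 to 555 per mouse and cluster. Cluster 2 cells of the other groups were few as well, 74 to 245 per mouse. The levels here are UMIs of a cluster and mouse scaled by their total alone, without TMM, and are a description, since the clusters were made from the same cells. Median depth ran from 4677 to 7060 UMIs per cell in cluster 0, from 3288 to 4773 in cluster 1 and from 6278 to 9727 in cluster 2.

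Casp4 separated clusters 0 and 1 more than any other member. It had 106 ± 7.55 CPM in cluster 0 and 28.6 ± 2.65 CPM in cluster 1 of the control mice, and 112 ± 17.3 and 28.6 ± 7.73 CPM at day 1. It was higher in cluster 0 in all 15 mice, by a ratio of 3.23 to 4.91 with a median of 3.87, and its thinned share in control cells was 27.7% against 8.03%. Nlrp3 was also higher in cluster 0 in all 15 mice, with a median ratio of 1.75, at 79.8 ± 6.30 against 51.6 ± 2.56 CPM in the control. Pycard ran the other way in all 15 mice, with a median ratio of 0.84, and Casp1, Il18, Aim2, Gsdmd and Casp8 had median ratios between 0.89 and 1.17.

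Pycard was higher at day 1 inside each cluster as well. In cluster 0 it had 494 ± 18.7 CPM at day 1 against 397 ± 12.7 in the control, in cluster 1 641 ± 24.4 against 489 ± 28.0, and in cluster 2 733 ± 18.4 against 470 ± 20.2. The groups did not overlap in any of the 3. Gsdmd at day 1 was 77.1 ± 8.47 CPM in cluster 0, 71.7 ± 1.47 in cluster 1 and 58.2 ± 0.60 in cluster 2, against 91.8 ± 4.46, 84.6 ± 3.93 and 68.5 ± 11.7 in the control. The day 1 mice lay below the control mice in every cluster on this scale. In cluster 2 the gap was narrow, 58.9 against 60.7 CPM, on 43 to 126 UMIs per control mouse. Over whole mice scaled by total UMIs alone, the median of all genes was -0.29 at day 1, and no such median was computed per cluster. Whether Gsdmd fell more than other genes inside a cluster was not tested. Il18, whose TMM-scaled sum was higher at day 1, was here 44.8 ± 3.16 CPM in cluster 0 at day 1 against 53.4 ± 2.34 CPM in the control, the direction its sum also took when scaled by total UMIs. The groups overlapped in the other clusters. Il18 had 46.9 ± 4.24 against 54.6 ± 3.58 CPM in cluster 1, and 51.1 ± 2.41 against 54.2 ± 10.2 CPM in cluster 2, which held most day 1 cells. Of the Mlkl UMIs of the day 1 mice, 93 to 102 per mouse were in cluster 2 and 0 to 3 in either other cluster. In the control mice cluster 2 held 1 to 3 UMIs, too few to compare. In cluster 2 these made 1.42 to 1.82 CPM at day 1 and 1.46 to 2.25 CPM in the control, so a rise of Mlkl inside that cluster was not shown.

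**Figure D4:**
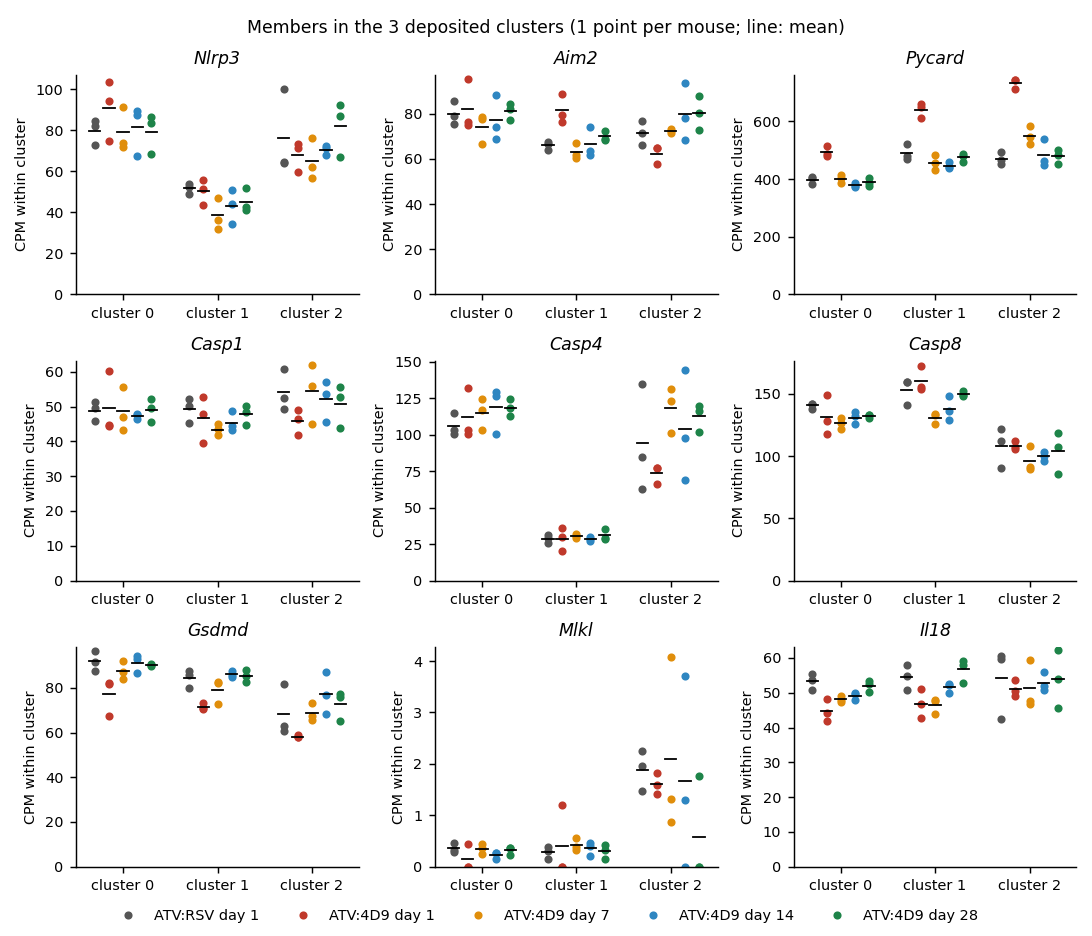
CPM of each member within clusters 0, 1 and 2 (x axis) with 1 point per mouse, coloured by group, and a line at the mean of 3 mice. Casp4 lies between 20.5 and 35.9 CPM in cluster 1 and above 100 CPM in cluster 0, and Pycard at day 1 is highest in cluster 2.

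Genes that act with the members were called in both directions. Of 69 related genes listed, 67 had a row and 57 were tested, and at day 1 24 were higher, 17 lower and 16 not called, with a median log2 fold change of -0.01. Beside this stand the 69.2% of all genes called at day 1, 34.7% higher and 34.6% lower, so calls were common everywhere and the counts by list below are to be read against that share. In the IL-1 family 6 of 10 were higher and 0 lower, with a median of 0.81, where 34.7% of all genes were higher and 34.6% lower with a median of -0.05. Il1b, whose precursor caspase-1 cuts, went from 90.2 ± 26.8 to 346 ± 76.8 CPM (log2 1.95 ± 0.29, adjusted p = 2.01e-05). Il1rn, the receptor antagonist, had 2 to 13 UMIs in a control mouse and 397 to 444 in a day 1 mouse (log2 5.67 ± 0.66, adjusted p = 1.38e-06). Il18bp, which binds and blocks IL-18, went from 1.90 ± 0.34 to 7.55 ± 0.23 CPM (log2 1.98 ± 0.13, adjusted p = 2.34e-09), beside the 0.15 of Il18 itself. Sigirr, a decoy-like receptor of the family, differed by 1.18 ± 0.24 at low counts, and Il1rap, the shared receptor chain, by 0.22 ± 0.08, a call lost on leaving out any of 3 of the 6 mice in turn.

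Sensors and their regulators split evenly, with 4 of 11 higher, 4 lower and a median of -0.01. Txnip, which binds NLRP3, fell by 0.86 ± 0.09 and P2rx7, the ATP-gated channel that triggers NLRP3, fell by 0.80 ± 0.06 on the log2 scale, while Brcc3, a deubiquitinase of NLRP3, rose by 0.73 ± 0.05 and Panx1, a release channel for ATP, by 0.49 ± 0.09. Adjusted p values of these 4 were 0.00017 or lower. Of the other caspases 1 of 6 was higher and 4 were lower, with a median of -0.46. Casp12, next to Casp4, fell by 1.18 ± 0.18 on the log2 scale from 1.97 ± 0.07 CPM in the control, and Casp6, an executioner caspase, fell by 1.11 ± 0.07.

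Membrane rupture and repair genes gave 1 higher and 2 lower of 4 tested. Chmp4b, of the ESCRT machinery that removes gasdermin pores, rose by 0.66 ± 0.05, Ninj1, which ruptures the membrane in lytic death, fell by 0.42 ± 0.13 and Gsdme fell by 0.34 ± 0.08. Scaled per cell, neither fall was called, at -0.06 for Ninj1 (adjusted p = 0.682) and 0.02 for Gsdme (adjusted p = 0.913). Around necroptosis, 7 of 16 were higher and 3 lower, with a median of -0.01, a called share that did not exceed the 69.2% of all genes. Zbp1, a nucleic acid sensor that engages RIPK3, went from 2.10 ± 0.76 to 61.4 ± 4.16 CPM (log2 4.89 ± 0.18, adjusted p = 2.20e-12) Tnf rose by 3.45 ± 0.24 and Ripk3, the kinase that activates MLKL, by 1.26 ± 0.09, while the inhibitors of apoptosis Birc2 and Xiap fell by 0.55 ± 0.07 and 0.42 ± 0.06. Scaled per cell, these differences were -0.19 for Birc2 (adjusted p = 0.184) and -0.06 for Xiap (adjusted p = 0.612) and were not called. Of the guanylate-binding proteins and transcription factors 5 of 10 were higher and 4 lower, with a median of 0.07: Gbp2 rose by 2.38 ± 0.08, and Gbp7 and Irf2 fell by 0.72 ± 0.11 and 0.56 ± 0.04, or by 0.36 and 0.20 per cell (adjusted p = 0.00664 and 0.0295). The 10 interferon-stimulated genes checked summed to 978 to 1110 CPM at day 1 and 44.9 to 109 CPM in the control, and 10 immediate early genes that dissociation induces summed to 13627 to 15717 against 20191 to 22364 CPM. Their part in the members' differences was not tested.

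**Figure D5:**
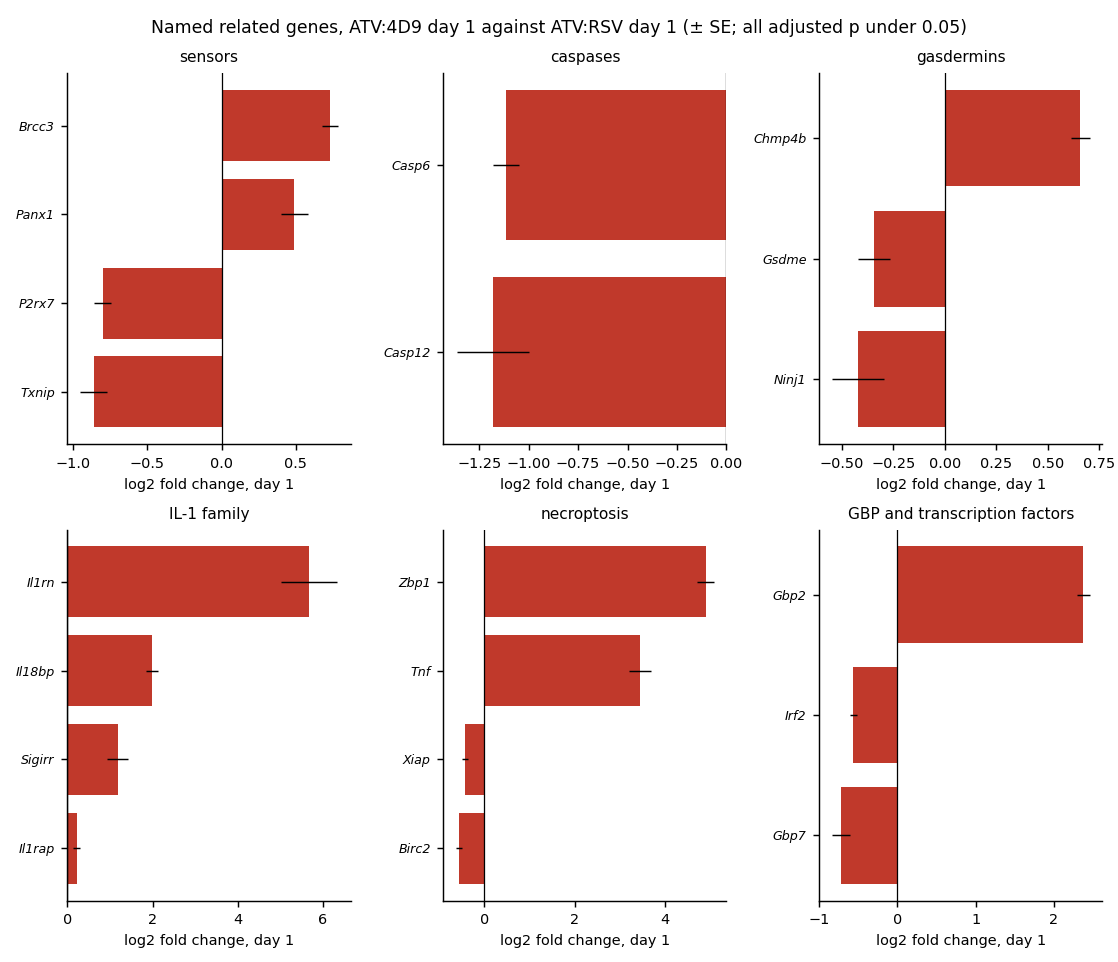
Log2 fold change at day 1 against ATV:RSV (x axis, ± SE) of genes named from the 6 related lists as the highest and lowest of each (y axis; Il1b and Ripk3 are not drawn), all with an adjusted p under 0.05. Il1rn, Zbp1 and Tnf extend farthest among them, and the sensors reach both sides of 0.

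At day 7, where no member was called, 6 related genes were higher and 1 was lower of 57, where 2.99% of all genes were higher and 0.996% lower, and at days 14 and 28 none was called. Il1b was still 1.82 ± 0.29 higher on the log2 scale (adjusted p = 0.00128), with 317 ± 76.5 CPM, and it stayed called when each mouse was left out in turn. With cells that carry markers of another type left out, the value was 1.83. Among the other calls, which are not all named here, those of Il1a (0.84 ± 0.19), Zbp1 (0.90 ± 0.22), Tnfaip3 (0.34 ± 0.08), Birc3 (0.30 ± 0.07) and Gbp7 (-0.49 ± 0.12) were each lost without at least 1 mouse, with adjusted p rising to between 0.106 and 0.147.

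The genes most like each member over the 15 mice were sought among 10970 others by Pearson's r of log2 CPM, as a description of mice that share treatment and batch. Pycard was most like Gpaa1 (r = 0.996) and Cuedc2 (r = 0.995), Gsdmd most like Ric8a and Cdk9 (r = 0.98 each), and Mlkl most like B9d1 (r = 0.98) and Fam111a (r = 0.97). Il18 was most like Ppp6c (r = 0.96) and Trappc2 (r = 0.94). The best values of the other 5 were lower, Casp1 with Laptm4a (r = 0.93) and Gpr108 (r = 0.90), Aim2 with Trim24 (r = 0.90) and Rxylt1 (r = 0.88), Nlrp3 with Trib1 (r = 0.86), Casp8 with Rbm42 (r = 0.87) and Dnpep (r = 0.84), and Casp4 with Rnf19b (r = 0.85) and Tmem86b (r = 0.75).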

How the data were processed

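Single-cell RNA-seq libraries (10x 3′ v3 kit) were made from bead-enriched CD45+ brain cells of 15 mice. The authors mapped reads to mm10 with Cell Ranger (4.0.0 in the submitters' processing notes) and deposited filtered UMI counts per gene and cell, and a deposited cell table with counts and genes per cell, the percent of mitochondrial UMIs, a cluster and the mouse. The deposited cells had at least 500 genes and at most 10% mitochondrial UMIs. Whether doublets had been removed is not given in the sources used here, and no doublet caller was run; alternatives dropped the 1725 cells that carried 3 or more markers of other types, or the top 5% of cells by UMIs.

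UMI counts of 102043 cells were summed per mouse, filtered with filterByExpr (minimum count 10, total 15), normalized with TMM factors from edgeR 4.0.16 and analysed by limma-voom (R 4.3.3 with limma 3.58.1) in 1 fit of 5 group means over 15 mice. P-values were adjusted by Benjamini-Hochberg over all 14260 genes. DESeq2 1.42.0 and edgeR were alternatives. Cells were thinned to 3385 UMIs (the 10th percentile), which left out 10204 cells, 3.93% to 5.79% of those of an ATV:4D9 day 1 mouse and 6.75% to 17.8% elsewhere. Shares were tested by exact permutation within batches (14400 arrangements). Intervals and counts cover the mice sampled; UMIs count molecules. The fit and the permutation test were tested on simulated data. For the fit a small part of the genes was changed, in the day 7 group only, so a change as wide as that at day 1 was not simulated.

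Per the labels each batch contains every condition, so the batch number pairs mice across groups; the printed fits have no batch term, and the fit with batch as a replicate block was an alternative. Deviations of mice of the same batch correlated at a mean r of 0.0539 (30 pairs, -0.225 to 0.259), those of different batches at -0.0267 (60 pairs). No pair of libraries was a copy.

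The members and gene lists were chosen with earlier results of these data known. All 9 members were named; of each related list the text names the 2 highest and 2 lowest called genes at day 1 and up to 4 called at each later day (Il1b and Ripk3 at day 1 were added after their values were seen), and for each member the 2 genes with the highest correlation. Positions are from GENCODE M21 (mm10). Pydc3 and Pydc4, and a further control animal that the labels mention, were not analysed here, and some genes that the naming rule chose are not reported here.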

Additional observations from a re-analysis of the deposited data

Results flagged for a closer look

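The effect of ATV:4D9 differed between day 1 and day 7 for 4 of 9 members, by a limma-voom test of the difference itself, in which the shared control cancels. Of all genes 66.9% were called in that test, a share that the members did not exceed. The day 7 effect minus the day 1 effect was -0.92 on the log2 scale for Pycard (adjusted p = 1.36e-10), -2.01 for Mlkl (adjusted p = 3.19e-06) and -0.23 for Il18 (adjusted p = 0.000984), which was not called with library size alone (-0.087, adjusted p = 0.1003). It was 0.37 for Gsdmd (adjusted p = 1.74e-06), which turned to -0.091 and was not called when scaled by the number of cells (adjusted p = 0.366). In TMM-scaled CPM the 3 mice of either day did not overlap for any of the 4, which had been picked as called. Groups of 3 mice were too small for a test of single outlying mice.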

How the results depend on the processing

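At day 1 the number of members called was 5 and lay between 4 and 5 when each mouse was left out, and with the replicate block it was 6, Casp1 being added (0.14, adjusted p = 0.0387); the block, which pairs the mice of a batch, changed no other call of a member. Scaling by the number of cells gave 8 members at day 1, 8 between day 7 and day 1 and 8 in the F test, where 8945, 9015 and 9008 of all 14260 genes were called. Library size alone gave 2 members at day 7 (Casp8 and Il18, both lower) and 7 in the F test, beside 1199 and 10373 of all genes, and leaving out a mouse gave 4 to 6 in the F test. Cells with no UMI of Mki67 or Top2a gave 6 at day 1, again with Casp1. The count stayed 0 at days 7, 14 and 28 and 4 between day 7 and day 1 whichever mouse was left out.

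With library size alone Nlrp3 turned to -0.071, Casp1 to -0.10, Casp4 to -0.17, Il18 to -0.086 and, among related genes, Il1rap to -0.019. Scaled by the number of cells, Casp8 turned to 0.21, Aim2 to 0.34, Gsdmd to 0.0067 at day 1 and -0.091 between day 7 and day 1, and Gsdme to 0.016. Aim2 also turned with DESeq2 size factors (0.0025), with DESeq2 (0.0045), with no filter (0.0078) and in cells without Mki67 or Top2a (0.0013), and ranged from -0.056 to 0.049 on leaving out mice. Il18 at day 1 was not called in the fit of 2 groups only (0.15, adjusted p = 0.0511) or with thinned cells (0.06, adjusted p = 0.428). A tally over the settings covered all members at day 1, Pycard, Gsdmd, Il18 and Mlkl between day 7 and day 1, and Casp4 at the later days. In it 277 log2 values kept their side of the threshold, 7 passed it newly, 6 lost it and 14 changed sign. Calls gained in other comparisons are outside this tally, among them Casp8 and Il18 at day 7 with library size alone. The 14 to 18 UMIs of Mlkl per control mouse limit its fold, and the causes of these shifts beyond the scaling itself were not tested.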
